A study of Mus musculus with 7 samples.

Results

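The genes described here encode the RNA splicing machinery and the hnRNPs. They comprise 117 protein-coding genes on chromosomes 1 to 19 whose RefSeq symbols belong to the Srsf, Hnrnp, Sf3a, Sf3b, Snrp, Prpf, numbered Rbm, Rbfox, Celf, Ptbp and Elavl families or are Nova1 or Nova2, among 20665 protein-coding genes on the same chromosomes. Membership was set by symbol and position and used no measured value, though the set was chosen with earlier results of these data known. Open chromatin had been profiled by ATAC-seq, an assay that tags accessible DNA with a transposase, in neural progenitors sorted for CD15 from the brains of CD-1 mice at E14.5 (the age label reads embryonic day 14). There were 4 libraries from L3mbtl3 -/- (knockout) embryos and 3 from wild-type embryos, and both genotypes shared strain, age, sorting marker and assay. How the knockout allele was made, and whether a library came from 1 embryo or several, is not given in the sources used here, so p-values measure the spread between these libraries, which may be in part technical.

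Splicing removes introns from pre-mRNA. The spliceosome is built from small nuclear ribonucleoproteins (snRNPs). Each holds an RNA, in most cases a ring of Sm proteins, and particle-specific proteins such as the SF3 and Prpf factors. SR proteins (Srsf) mostly favour the use of nearby splice sites and hnRNPs often oppose it, while Rbfox, Celf, Nova, Elavl and Ptbp proteins set tissue-specific exons; in the developing cortex, Ptbp1 holds neuronal exons back in progenitors and its loss accompanies neuronal differentiation.

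The 4 knockout lists held 9827, 7111, 3366 and 17362 peaks and the 3 wild-type lists held 7448, 11394 and 6458. Counts of called genes move with list length, and no read depth can be given because the lists hold no counts. Of 10 marker genes of radial glia and neural progenitors, 5 had a peak within 1 kb of a gene end in any library (24.1% of all genes had one), Sox2 in 1 library. In the wider loci (50 kb flanks included), Vim and Fabp7 had a peak in 7 of 7 libraries (background 7.16% of all genes). Pax6, Slc1a3 and Fut4, which encodes an enzyme that makes CD15, had one in 6 of 7. Emx2 had one in 4 libraries, Nes and Hes5 in 2 each and Sox2 in 1, while Hes1 had none. In all, 9 of the 10 had a locus peak in at least 1 library, against 70.7% of all genes. Of the lists for other cells, the neuronal Tbr1, the ventral Gad2 and the meningeal Dcn had a locus peak in every library, whereas Eomes, Gad1, Csf1r, Col1a1 and Lum had none. Summed over the radial glia list, loci held 4 to 24 peaks in knockout and 7 to 13 in wild-type libraries. The same sums were 1 to 5 and 1 to 3 for neuronal and intermediate progenitor genes, 3 to 6 and 2 to 4 for ventral, 0 to 3 and 0 to 1 for endothelial, 0 to 2 and 0 to 3 for microglial and blood, and 1 to 2 and 1 to 1 for meningeal genes. Their part in the results below was not tested.

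The promoters of the splicing genes whose RefSeq start was open in most libraries are shown first, since the results turn on them. RefSeq promoter windows, from 250 bases before to 50 bases after a start on GRCm38.p6, were at hand for 99 of the 117 genes, with 148 windows in all. A peak of any library overlapped a window of 35 of these genes (35.4%, background 22.3%), in at least 4 of 7 libraries for 7 genes (7.07%, background 6.44%) and in all 7 libraries for Hnrnpc, Rbm15 and Elavl2 (3.03%, background 1.09%). A gene counted if any of its windows was hit, and the splicing genes had more windows per gene than the background (20085 windows for 16457 genes). By window, 41 of the 148 were hit in any library, against 4005 of the 20085. No member window was called in every library of a genotype and in no library of the other (background 0.0243% for knockout and 0.00608% for wild-type). For each, the 250 bases before the start are printed 5′ to 3′ on the strand of the gene, in lower case, with capitals marking every match on either strand to 8 short promoter elements. The elements were GGGCGG (the GC box of Sp1-type factors), CCAAT (bound by NF-Y), CCGGAA (the core of Ets sites), TATAAA (the TATA box), GCATGC (the core of Nrf1 sites), ATGGCG (found in YY1 sites), TGACGT (the cyclic-AMP response element) and the E-box CAGCTG. The positions are chr14:52104022-52104271 on the minus strand for Hnrnpc, chr3:107333290-107333539 minus for Rbm15, chr4:91376497-91376746 minus for Elavl2, chr4:62408533-62408782 plus for Prpf4, chr7:28810640-28810889 plus for Hnrnpl, chr7:27196272-27196521 minus for Snrpa and chr7:60450178-60450427 minus for Snrpn.
Hnrnpc: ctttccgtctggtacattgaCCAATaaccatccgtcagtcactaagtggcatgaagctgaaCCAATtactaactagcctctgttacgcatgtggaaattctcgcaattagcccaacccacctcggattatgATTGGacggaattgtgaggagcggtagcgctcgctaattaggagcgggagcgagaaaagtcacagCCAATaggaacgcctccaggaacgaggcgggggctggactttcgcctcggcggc
Rbm15: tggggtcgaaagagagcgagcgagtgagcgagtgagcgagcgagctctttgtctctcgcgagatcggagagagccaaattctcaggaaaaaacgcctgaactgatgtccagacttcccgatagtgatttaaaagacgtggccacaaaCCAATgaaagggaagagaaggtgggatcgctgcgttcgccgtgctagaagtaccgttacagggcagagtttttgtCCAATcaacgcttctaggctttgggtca
Elavl2: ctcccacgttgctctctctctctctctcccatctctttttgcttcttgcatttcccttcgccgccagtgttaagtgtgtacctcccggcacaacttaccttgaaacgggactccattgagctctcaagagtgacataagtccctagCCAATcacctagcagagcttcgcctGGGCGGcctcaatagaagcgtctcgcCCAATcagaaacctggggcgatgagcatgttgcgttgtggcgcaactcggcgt
Prpf4: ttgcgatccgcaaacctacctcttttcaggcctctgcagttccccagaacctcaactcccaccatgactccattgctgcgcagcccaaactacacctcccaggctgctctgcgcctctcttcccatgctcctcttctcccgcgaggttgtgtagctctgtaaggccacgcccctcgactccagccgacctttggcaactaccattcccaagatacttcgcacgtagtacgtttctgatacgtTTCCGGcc
Hnrnpl: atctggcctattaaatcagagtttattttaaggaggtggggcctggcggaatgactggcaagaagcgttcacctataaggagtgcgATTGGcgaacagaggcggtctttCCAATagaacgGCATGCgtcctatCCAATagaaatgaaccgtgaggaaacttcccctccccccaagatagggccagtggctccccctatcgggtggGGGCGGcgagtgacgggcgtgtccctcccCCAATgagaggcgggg
Snrpa: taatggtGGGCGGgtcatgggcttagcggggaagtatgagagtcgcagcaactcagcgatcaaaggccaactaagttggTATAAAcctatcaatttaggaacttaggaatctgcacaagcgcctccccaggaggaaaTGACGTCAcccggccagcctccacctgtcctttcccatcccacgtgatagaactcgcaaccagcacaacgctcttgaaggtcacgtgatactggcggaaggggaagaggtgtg
Snrpn: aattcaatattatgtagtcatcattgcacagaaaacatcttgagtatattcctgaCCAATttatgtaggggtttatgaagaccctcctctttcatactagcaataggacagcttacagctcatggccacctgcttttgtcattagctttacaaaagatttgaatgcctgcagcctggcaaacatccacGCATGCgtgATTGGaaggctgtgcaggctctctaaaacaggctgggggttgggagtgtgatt

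Hnrnpc, which encodes an hnRNP that binds uridine-rich tracts of nascent transcripts, had a promoter peak in 4 of 4 knockout and 3 of 3 wild-type libraries. Its peaks stood at percentiles 36.2, 21.99, 74.5 and 91.5 of −log10 q in the knockout lists and 91.2, 80.7 and 54.1 in the wild-type lists, where the percentile ranks a peak among all peaks of its own list. The percentiles ran from 21.99 to 91.5 between knockout libraries and from 54.1 to 91.2 between wild-type libraries, so that the genotypes overlapped. The 250 bases shown hold 4 CCAAT elements and no other searched element. The same peaks lay within 1 kb of an end of the neighbouring gene Rpgrip1, so that the call belongs to both genes.

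Rbm15, whose product brings the m6A methyltransferase complex to RNA, was also called at its promoter window in all 7 libraries. The overlap was 300 bases of the window in knockout libraries 1 and 4 and in wild-type libraries 1 and 2, and 275 bases in wild-type library 3. In knockout libraries 2 and 3 it was 1 and 11 bases, because their peaks of 138 and 153 bp lay on the gene side of the start. The peaks spanned 523, 138, 153 and 655 bp in knockout and 552, 542 and 417 bp in wild-type libraries. The narrow peaks of knockout libraries 2 and 3 were low in their lists, at percentiles 12.5 and 5.41.

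Elavl2 encodes a neuronal Hu protein that binds AU-rich RNA. Its open promoter lay not at the outermost start of the gene but 23.6 kb inside the span, at a start that RefSeq also annotates. Peak percentiles were 98.1, 90.2, 48.5 and 95.5 in knockout and 98.3, 96.9 and 97.7 in wild-type libraries. All but the peak of knockout library 3 stood at percentile 90.2 or above, and the authors' fold enrichment was 7.70, 6.35, 4.74 and 6.58 in knockout against 7.75, 6.98 and 7.07 in wild-type libraries. This peak ranked higher than any other peak in a promoter window of these genes in 6 of the 7 libraries. In knockout library 3 the Hnrnpc and Sf3b2 peaks stood higher, at 74.5 and 49.2. Sf3b5, which has no promoter window here, had an end peak at percentile 95.6 in knockout library 4. At the outermost start, knockout library 4 alone had a peak.

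Prpf4, which encodes a protein of the U4/U6 snRNP, was called at its promoter in 3 of 4 knockout and 3 of 3 wild-type libraries, all but knockout library 3. Percentiles were 30.1, 69.4 and 65.3 in the calling knockout libraries and 66.0, 79.5 and 90.9 in the wild-type libraries. The peak was within 1 kb of an end of Cdc26 as well. Hnrnpl, an hnRNP that binds CA repeats, was called at an annotated start inside its span in 2 of 4 knockout and 2 of 3 wild-type libraries. Snrpa, the U1 snRNP protein A, was called in 3 of 4 and 1 of 3, and Snrpn, an imprinted Sm protein gene of the brain, in 2 of 4 and 2 of 3. The Snrpn call lay at the outermost start of its span of 467683 bp, with 43.2% GC and 2 CpG. No library had a peak in the windows of its other annotated starts, which lie inside the span. In the Snrpa sequence TGACGT and its reverse complement overlap in the same 8 bases, so that both strands match there.

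Promoters of the splicing genes were rich in CpG dinucleotides. The 148 windows had a median GC content of 59.2% and 17.5 CpG per 250 bases, against 56% and 10 in all 20085 windows. Over all genes, windows with a peak were similarly rich, at 59.6% and 17, against 54.4% and 7 in those without. In the splicing genes the medians were 56.8% and 17 with a peak and 60.4% and 18 without. CCAAT occurred in 44.6% of the splicing gene windows and in 35.3% of all windows, CCGGAA in 29.7% and 15.3%, TGACGT in 15.5% and 7.46%, GCATGC in 12.8% and 6.99%, and ATGGCG in 12.8% and 6.55%. GGGCGG occurred in 50.7% and 43.4%, TATAAA in 10.1% and 11.7%, and CAGCTG in 12.8% and 12.2%. Among the 41 splicing gene windows that a peak of any library overlapped, 28 (68.3%) held CCAAT, against 35.5% of the windows without a peak; over all genes the shares were 52.4% and 31.0%. For GGGCGG the order was the other way in the splicing genes, with 43.9% of windows with a peak and 53.3% of those without, while over all genes it was 61.05% and 39.0%. Windows of the same gene can overlap, so these shares are a description and were not tested.

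At gene ends, defined as a peak within 1 kb of either end of the gene span, 45 of the 117 splicing genes (38.5%) were called in at least 1 library, against a background of 24.1% of all protein-coding genes. Most of the difference in share lay in genes called once: 24 splicing genes (20.5%) were called in a single library, against 10.1% of all genes. At least 2 libraries called 21 (17.9%, background 14%), at least 4 called 7 (5.98%, background 6.69%), at least 6 called 4 (3.42%, background 2.81%), and all 7 called Hnrnpc alone (0.855%, background 1.17%). Of the 24 genes called in a single library, 19 were called in knockout library 4, which has the longest list, 4 in wild-type library 2 and 1 in knockout library 3. Without knockout library 4, 26 of the 117 (22.2%) were called, against 17.9% of all genes.

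**Figure D1:**
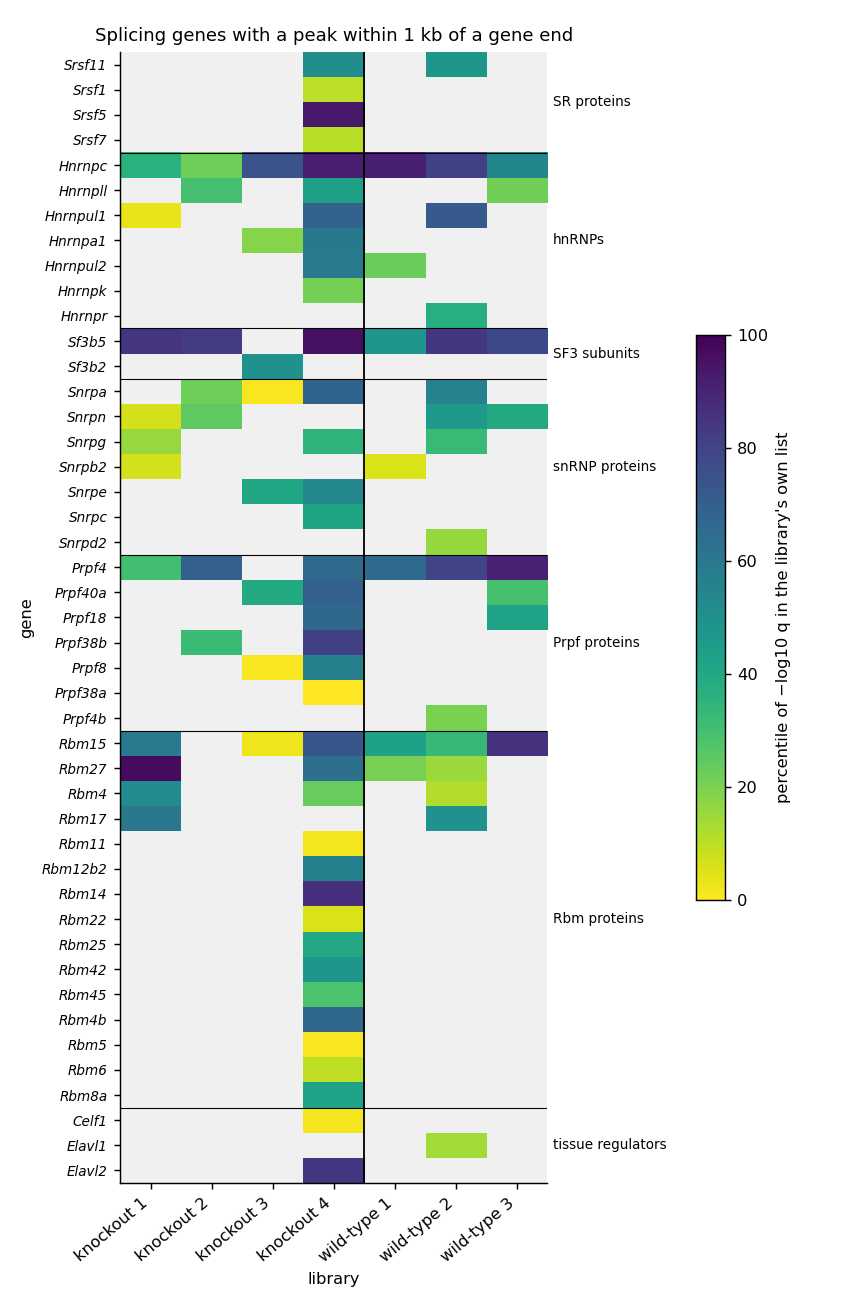
Each row is a splicing gene with a peak within 1 kb of a gene end in at least 1 library, grouped by family, and each column a library, knockout left of wild-type. Colour gives the percentile of the peak's −log10 q within the library's own list and grey no peak; Hnrnpc is filled in all 7 columns and 19 genes are filled in knockout library 4 alone.

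Every called splicing gene of known direction was called at its 5′ end. The promoter table gives the strand of 99 members, of which 36 had an end call, 36 at the 5′ end (36.4% of 99, background 23.5%) and 0 at the 3′ end (background 2.17%). Over all genes of known strand with an end call, 94.5% were called at the 5′ end and 8.73% at the 3′ end, some at both. By 500 bp bins, 7.65% of gene and library pairs had a peak in the last 500 bp before the 5′ end of a splicing gene and 4.18% in the first 500 bp after it, against 7.17% and 5.51% for all genes. From 1000 to 1500 bp into the gene the share was 1.73% for splicing genes and 0.377% for all genes. A gene counts once per library here, so few genes can make up this share. Peaks that reach this range include those of Rbm15, in 7 libraries, and Hnrnpul1, in 4, both near an annotated start inside the span. For Sf3b5, a subunit of the SF3B part of the U2 snRNP with a span of 734 bp, 1 peak reached the windows of both ends, and its strand was not used here.

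**Figure D2:**
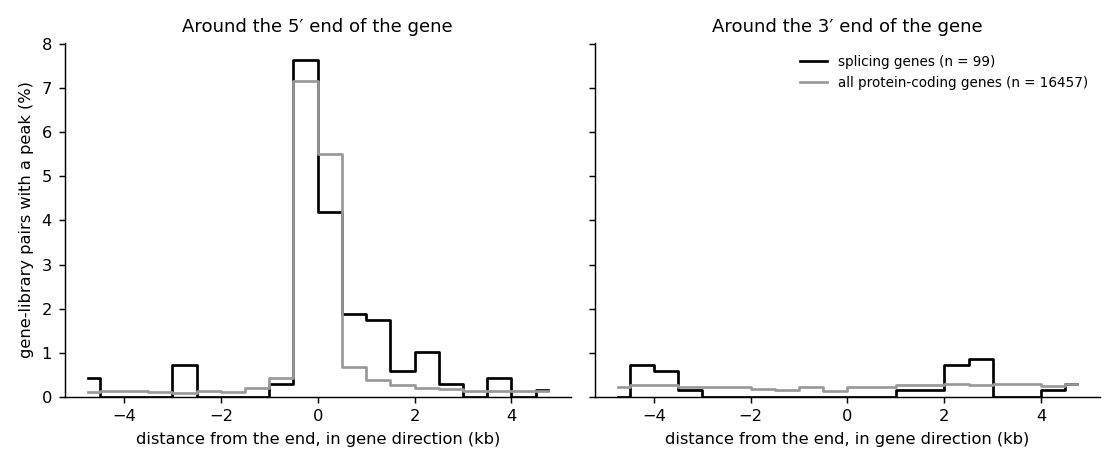
The vertical axis gives the percentage of gene and library pairs with a peak in a 500 bp bin, and the horizontal axis the distance in kb from the 5′ end (left) or 3′ end (right), in the direction of the gene. Splicing genes (black, n = 99) and all protein-coding genes (grey, n = 16457) both have their highest bin just before the 5′ end, at 7.65% and 7.17%, and splicing genes are at 0% within 1 kb of the 3′ end.

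The peaks of splicing genes were of modest rank. The median percentile of their end peaks was 36.2, 29.5, 28.7 and 53.6 in the knockout lists and 42.8, 41.3 and 48.0 in the wild-type lists, against 55.0, 51.9, 51.9 and 59.05 in knockout and 54.6, 55.7 and 56.4 in wild-type lists for all genes with an end peak. In every library the splicing genes had the lower median. With peaks of −log10 q of at least 5, 4 splicing genes (3.42%) had an end peak in any library, namely Hnrnpc, Sf3b5, Rbm27 and the SR protein gene Srsf5, against 4.31% of all genes.

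By family, an end call in at least 1 library was found in 7 of 12 snRNP protein genes (58.3%), 7 of 13 Prpf genes (53.8%), 15 of 34 Rbm genes (44.1%), 4 of 11 SR protein genes (36.4%), 7 of 20 hnRNP genes (35%), 2 of 9 SF3 genes (22.2%) and 3 of 18 tissue regulators (Rbfox, Celf, Elavl, Nova and Ptbp, 16.7%). Against the 24.1% of all genes, SF3 genes and tissue regulators were near or below the background, and the families are small. Of the SR protein genes, which are among the shortest at a median span of 7290 bp, Srsf1, Srsf5 and Srsf7 were called in knockout library 4 and Srsf11 in knockout library 4 and wild-type library 2. Of the Rbm genes, 11 were called in knockout library 4 alone. Sf3b5 was the SF3 gene called in most libraries, in 3 of 4 knockout and 3 of 3 wild-type, at percentiles of 85.05, 82.3 and 95.6 in the calling knockout lists and 47.4, 84.3 and 77.8 in the wild-type lists. Sf3b2 was called in knockout library 3 alone, and no library called the ends of Sf3b1, whose product helps to recognise the branch point.

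The first comparison by genotype asks whether more splicing genes had an open end in knockout than in wild-type progenitors. The 4 knockout libraries called 11, 7, 8 and 37 of the 117 genes and the 3 wild-type libraries 7, 16 and 8. Knockout library 4 was the highest and the other 3 knockout libraries lay within the wild-type range. The share was 13.5% ± 12.2 in knockout and 8.83% ± 4.22 in wild-type libraries (SD, n = 4 and 3), or 4.63 percentage points apart, which was smaller than the spread among knockout libraries. The difference was 0.997 points with lists of equal length and 0.855 with peaks of −log10 q of at least 5. Over all genes it was 9.34% ± 6.44 and 8.52% ± 2.47. Without knockout library 4 the difference in splicing genes was −1.425 points.

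Within a library, the share of splicing genes over that of all genes was 1.05, 0.956, 1.85 and 1.72 in knockout and 0.793, 1.21 and 1.02 in wild-type libraries, a mean of 1.39 ± 0.457 and 1.01 ± 0.207 (SD, n = 4 and 3). The ratio was above the wild-type range in knockout libraries 3 and 4, which have the shortest and the longest list, and inside it in knockout libraries 1 and 2. Averaged over the 7 libraries it was 1.23 ± 0.402 (SD), and it was 0.868 where every list was shortened to its 3366 top peaks and 0.203 with peaks of −log10 q of at least 5, so that its side of 1 depended on which peaks counted.

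**Figure D3:**
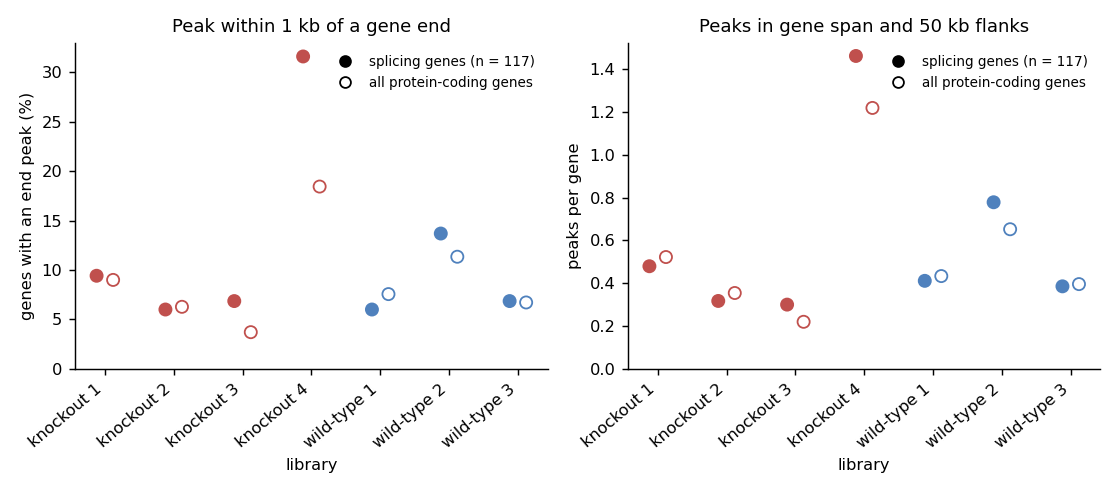
Left, percentage of genes with a peak within 1 kb of a gene end; right, mean number of peaks per gene in the span with 50 kb flanks, for each library (knockout red, wild-type blue), with splicing genes as filled and all protein-coding genes as open points. Knockout library 4 is highest in both panels, at 31.6% and 1.46 peaks for splicing genes, and the other libraries of both genotypes overlap.

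No splicing gene had an end call in every knockout library and no wild-type library or the reverse, a pattern seen in 0.029% of all genes for knockout and 0.00968% for wild-type. In Fisher's exact test per gene, with Benjamini-Hochberg adjustment over the 4977 genes with an end call, 0 of the 45 called members passed, 0 had an unadjusted p under 0.05 (background 0.161%), and the smallest p of a member was 0.429 with an adjusted p of 1. The smallest p that 4 against 3 libraries allow is 0.0286, so that a single gene could not pass the adjustment. A larger share of knockout than of wild-type libraries called 30 splicing genes (25.6%, background 12.8%) and a larger share of wild-type libraries called 14 (12%, background 10.2%). Without knockout library 4 these were 6 (5.13%, background 3.94%) and 11 (9.40%, background 9.3%). With 4 against 3 libraries, a gene called in equal numbers of knockout and wild-type libraries counted toward wild-type, among members and all genes alike.

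The members that leaned to knockout were few outside library 4. Prpf8, the U5 snRNP protein at the catalytic centre of the spliceosome, was called in 2 of 4 knockout libraries (3 and 4) and 0 of 3 wild-type libraries. Snrpe, an Sm ring protein gene, and Hnrnpa1, an hnRNP that binds exonic silencers, were called in the same libraries. At Prpf8 the peaks of the 2 libraries overlapped, but at Snrpe and at Hnrnpa1 they did not. Each site at Snrpe and Hnrnpa1 was thus called in 1 library. The Hnrnpa1 peaks also lay at an end of Cbx5, which encodes a heterochromatin protein. Prpf38b was called in knockout libraries 2 and 4. Each of these had an exact Fisher p of 0.429, and Snrpa, called in 3 of 4 and 1 of 3, had an exact Fisher p of 0.486. Percentiles were 1.10 and 56.4 for Prpf8, 41.3 and 53.6 for Snrpe and 18.2 and 59.6 for Hnrnpa1 in knockout libraries 3 and 4, and 31.9 and 81.1 for Prpf38b in libraries 2 and 4. Celf1, Elavl2, Hnrnpk, Prpf38a and Rbm11 were each called in knockout library 4 alone.

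Of the members that leaned to wild-type, 4 rested on wild-type library 2 alone. Elavl1, the ubiquitous Hu protein gene, Hnrnpr, the kinase gene Prpf4b and the Sm protein gene Snrpd2 were each called in 0 of 4 knockout libraries and in wild-type library 2 (exact Fisher p = 0.429 each). Elavl1 and Snrpd2 share their peak with an end of Ccl25 and Qpctl. Prpf4, Rbm15 and Sf3b5 were called in 3 of 4 and 3 of 3 (knockout library 2 called Rbm15 outside the end window), Rbm27 and Snrpn in 2 of 4 and 2 of 3, and Hnrnpul2 in 1 of 4 and 1 of 3 (exact Fisher p = 1 each). In all, 14 of the 45 called members shared an end peak with another protein-coding gene.

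The second comparison concerns whole loci, each gene span with its 50 kb flanks, where distal elements may lie. At least 1 library had a peak in 93 of the 117 loci (79.5%, background 70.7%), and all 7 libraries had one in 11 (9.40%, background 7.16%). Loci held 0.479, 0.316, 0.299 and 1.46 peaks per gene in knockout and 0.410, 0.778 and 0.385 in wild-type libraries, or 0.639 ± 0.554 and 0.524 ± 0.220 (SD, n = 4 and 3). The difference of 0.115 peaks was within the spread of either genotype and was −0.1595 without knockout library 4; over all genes the loci held 0.578 ± 0.445 and 0.493 ± 0.139. In the exact permutation test per gene, 0 of 93 members passed the Benjamini-Hochberg adjustment over 14606 genes and 0 had an unadjusted p under 0.05 (background 0.294%). The smallest p that this permutation test allows is 0.0286, so that a single gene could not pass the adjustment.

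The tissue regulators had few calls at ends and more peaks per locus than the other families. Their spans are long, at a median of 78375 bp against 17761 bp for all members and 17491 bp for all genes, and their loci held a mean of 1.29 peaks per library, against 0.312 for SR protein, 0.421 for hnRNP, 0.429 for SF3, 0.462 for Rbm, 0.512 for snRNP and 0.637 for Prpf loci. Per 100 kb of locus this order did not hold: Prpf loci held 0.506 peaks, regulators 0.386, SF3 0.363, hnRNP 0.360, snRNP 0.347, Rbm 0.337 and SR protein loci 0.277, against 0.369 for all members and 0.365 for all genes. Across the 117 members, Spearman's rho between span and mean locus peaks was 0.204, a description in which the points share the same 7 libraries.

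Rbfox1, which encodes a splicing factor of neurons and muscle, had the most locus peaks of the members, with 6, 4, 1 and 9 in knockout and 4, 8 and 5 in wild-type libraries (5 ± 3.37 and 5.67 ± 2.08, SD, n = 4 and 3). The genotypes overlapped, with the lowest and the highest value both in knockout libraries. Its span of 1527688 bp and flanks held 12 merged regions, where peaks of any library that overlapped by at least 1 bp were joined. A region 1077 kb from the 5′ end (chr16:6962039-6962378) was called in 7 of 7 libraries, and 1 at 595 kb (chr16:6479448-6479958) in 3 of 4 knockout and 3 of 3 wild-type libraries. A further 4 regions were called in 1 library each, and no library had a peak within 1 kb of either end of the gene.

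Celf2, a CELF family regulator of splicing and mRNA stability, had 6, 6, 3 and 9 locus peaks in knockout and 2, 6 and 3 in wild-type libraries (6 ± 2.45 and 3.67 ± 2.08, SD, n = 4 and 3). The difference of 2.33 did not pass the test (exact permutation p = 0.286, adjusted p = 1) and the genotypes overlapped. Of its 12 regions, 1 at 801 kb from the 5′ end (chr2:6594796-6594996) was called in 4 of 4 knockout and 1 of 3 wild-type libraries and 1 at 521 kb (chr2:6875273-6875552) in 3 of 4 and 0 of 3 (exact Fisher p = 0.143 for both, adjusted p = 1 over 24734 regions). At 471 kb (chr2:6925608-6925939) 3 of 4 knockout and 3 of 3 wild-type libraries had a region, and at 307 kb (chr2:7089139-7089625) 4 of 4 and 2 of 3.

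**Figure D4:**
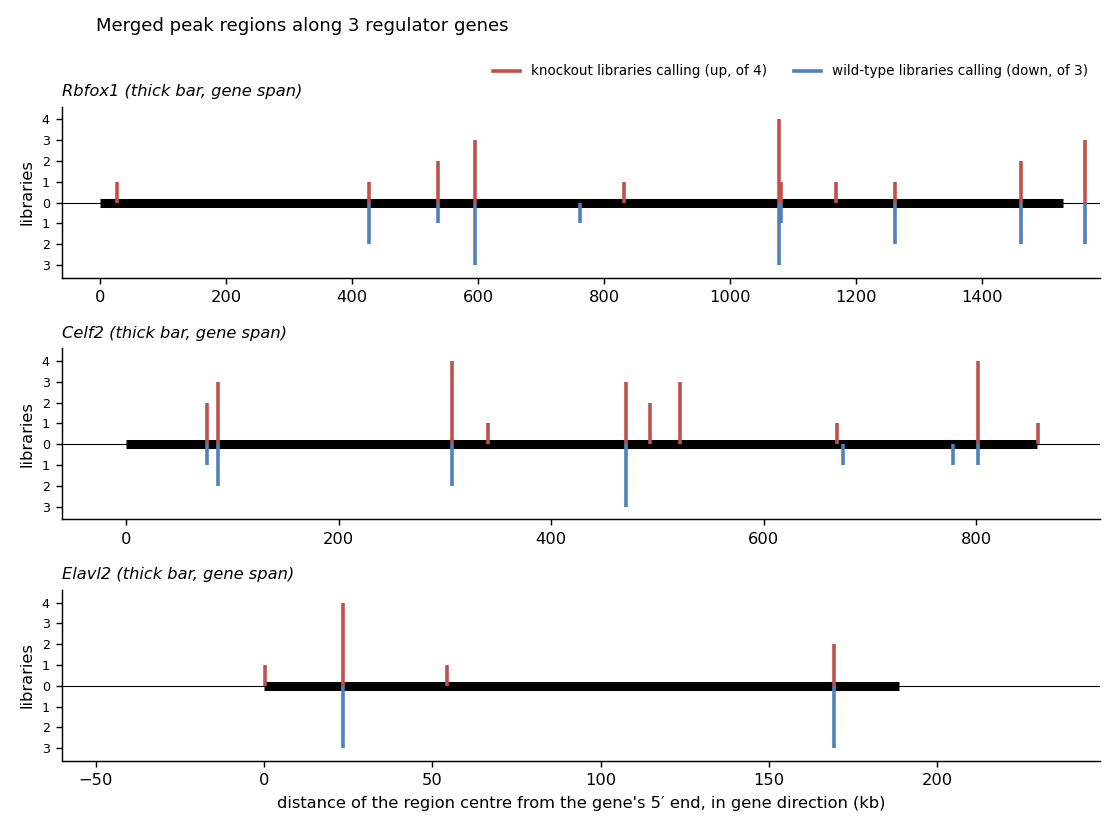
Merged peak regions along Rbfox1, Celf2 and Elavl2 by distance of the region centre from the 5′ end in kb, with the gene span as a thick bar. Red lines upward count the knockout libraries (of 4) and blue lines downward the wild-type libraries (of 3) calling each region; the regions called in all 7 libraries lie at 1077 kb in Rbfox1 and 23.6 kb in Elavl2, and Celf2 has none.

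Elavl2 had 2, 1, 1 and 4 locus peaks in knockout and 2, 2 and 2 in wild-type libraries. Besides the internal promoter, a region at 169 kb from its 5′ end (chr4:91230516-91230804) had calls from 2 of 4 and 3 of 3. Nova2, a neuronal splicing regulator, had 2, 2, 0 and 3 peaks in knockout and 2, 3 and 1 in wild-type libraries. Its most widely called regions lay in the flanks, in Ccdc61 (6 of 7 libraries) and beside Mypop (5 of 7). Nova1 had 1, 2, 0 and 1 in knockout and 1, 1 and 1 in wild-type libraries, with a region inside its span (chr12:46782396-46782614) called in 3 of 4 and 3 of 3.

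Ptbp1 and Ptbp2, whose products repress exons through polypyrimidine tracts, had no peak in span or flanks in any library, and Ptbp3 had 1, 1, 0 and 1 in knockout and 0, 2 and 0 in wild-type libraries. A locus without a called peak was not shown to be closed, since the depth of the lists is unknown. Rbfox2 had 1 peak in knockout library 4 alone, and Rbfox3, which encodes the neuronal antigen NeuN, had 0, 0, 0 and 2 peaks in knockout and 0, 0 and 2 in wild-type libraries. Celf4 had 1, 0, 0 and 2 in knockout and 2, 3 and 0 in wild-type libraries, and Celf3 had 0, 0, 1 and 3 against 1, 1 and 0 in wild-type. Celf5 had 1, 0, 1 and 3 peaks in knockout and 1, 1 and 0 in wild-type libraries, and Celf6 had 2 in knockout library 3 alone. Elavl1 had 1, 1, 1 and 4 in knockout and 0, 2 and 0 in wild-type libraries. Elavl3 had 1, 1, 1 and 2 in knockout and 1, 1 and 0 in wild-type libraries, and Elavl4 had 1, 0, 1 and 3 against 0, 1 and 0 in wild-type.

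**Figure D5:**
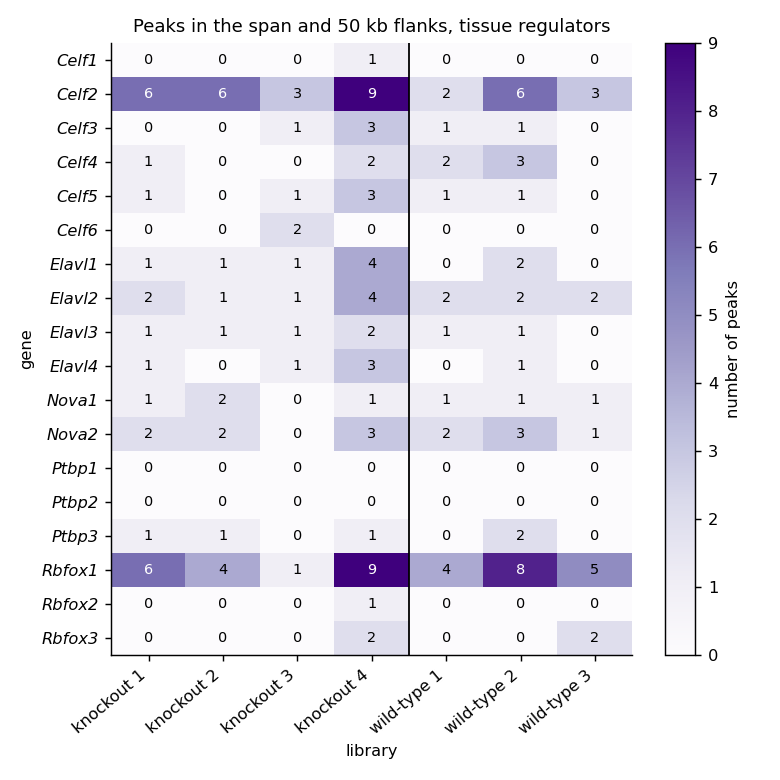
Number of peaks per locus (gene span with 50 kb flanks) for the 18 tissue regulators (rows) in each library (columns, knockout left of wild-type). Rbfox1 and Celf2 hold up to 9 peaks, both in knockout library 4, and Ptbp1 and Ptbp2 hold 0 in every library.

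Among the other members with most locus peaks, Rbm20, a regulator of titin splicing in heart, had 3, 1, 1 and 6 in knockout and 2, 2 and 3 in wild-type libraries, with a region inside its span (chr19:53833832-53834400) called in 4 of 4 and 2 of 3. Prpf31, a U4/U6 snRNP gene, had 2, 0, 1 and 4 in knockout and 1, 3 and 2 in wild-type libraries. Prpf4 had 2, 1, 1 and 3 and Rbm27 had 3, 1, 1 and 2 in knockout libraries, against 1, 3 and 2 and 2, 2 and 1 in wild-type. No adjusted p of these genes was below 1 in the exact permutation test.

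The 117 loci held 221 merged regions, of which 91 touched a member's span and 130 lay in flanks. No region separated the genotypes, with calls in each library of a genotype and nowhere in the other (background 0.109% of 24734 regions for knockout and 0.121% for wild-type). In all 7 libraries 6 regions were called (2.71%, background 5.13%): those at Hnrnpc, Rbm15, Elavl2 and Rbfox1, 1 near Sf3b6 that lies in Fam228b and Pfn4, and 1 near Rbm27 that lies in Lars. A single library called 118 (53.4%, background 48.2%), and 71 of these were in knockout library 4. No library had a peak in 24 of the 117 loci (20.5%), against 29.3% of all genes. These include Hnrnpa2b1, Hnrnpu, Hnrnpm, Srsf2, Srsf3 and Snrpb, which were named after their values were seen.

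Of 64 splicing genes outside these families (U2AF, Mbnl, Khdrbs, Lsm, Clk, DEAH-box helicase and related genes), 26 (40.6%, background 24.1%) had an end peak in at least 1 library, close to the 38.5% of the members. At least 4 libraries called 10 (15.6%, background 6.69%), against 5.98% of the members. All 7 libraries called 3 (4.69%, background 1.17%), against 0.855% of the members: Mbnl2, a regulator of neuronal exons, Xab2, of an intron-binding complex, and the U6 snRNA ring gene Lsm8. A larger share of knockout libraries called 14 (21.9%, background 12.8%) and a larger share of wild-type libraries 9 (14.1%, background 10.2%). These differences between lists were not tested. None separated the genotypes, and 0 passed Fisher's exact test, with 0 at an unadjusted p under 0.05.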

How the data were processed

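Nextera chemistry was used for the libraries, per the labels' protocols. Build GRCm38 is named in the submitters' processing notes, along with MACS2 (no version), Bowtie2 2.3.5.1 and deepTools 3.3.0; also listed are SAMtools 1.9, FastQC 0.11.8 and CASAVA 1.9. Settings, and whether reads were shifted for the transposase, do not appear in the sources used here. For each library the authors deposited a separate broad peak list in which every peak has a fold enrichment (a ratio) and a −log10 q. Both are the authors' values, used only to describe, rank or filter peaks inside a list. Depth is unknown, and no counting interval can be given.

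Peaks were laid on gene spans and promoter windows of RefSeq GRCm38.p6, counted from 1, with at least 1 bp of overlap. Spans carry no strand, which was taken from the promoter table for 99 members. Each gene end call was compared by Fisher's exact test, locus peak numbers by a two-sided exact permutation test, both with Benjamini-Hochberg adjustment over all genes called on chromosomes 1 to 19, in Python 3.11.15 with SciPy 1.17.1. Overlap and test code was tested on simulated data. The members and lists were chosen with earlier results of these data known, so lists are given as counts beside the background.

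Genes named are those called at an end in every library, up to 10 per direction with the largest difference between genotypes in the share of libraries calling them, the 8 members with most locus peaks, every Rbfox, Celf, Elavl, Nova and Ptbp gene, and members with a region that separates the genotypes (there was none). Promoter windows, their 7 printed sequences and the counts of direction without knockout library 4 were added after seeing the data.

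Alternatives were a −log10 q of at least 5, lists of equal length, end windows of 2.5 kb and 500 bp, at least 50% of a peak inside the window, flanks of 10 kb and 100 kb, gene starts only, leaving out each library, and the replicate numbers as a block.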

Additional observations from a re-analysis of the deposited data

Results flagged for a closer look

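Knockout library 4 lay far from the other 3 knockout libraries by a gap rule for groups of 4 (its distance to the nearest value set against the whole range) in the share of splicing genes with an end peak, at 31.6% (37 genes), and in peaks per locus, at 1.46. Within families the same library stood apart in end calls of SR protein genes, at 4, hnRNP genes, at 6, and tissue regulators, at 2. It also stood apart in locus peaks of Elavl1, at 4, of Elavl3 and Rbfox3, at 2 each, and of Celf1 and Rbfox2, at 1 each. Knockout library 3 stood apart at Celf6, with 2 peaks, and at Ptbp3, with 0. Of 34 results tested in this way 13 were singled out, where chance gives about 1 in 20; many are small whole numbers in which 1 differing library suffices, and the results share their libraries. The share of splicing genes over all genes in a library was not singled out.

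Rbm41 lies on chromosome X (139889511 to 139998595) and is outside the 117 genes. A peak in its flank, inside the span of Morc4, was found in 4 of 4 knockout and 0 of 3 wild-type libraries, at 139865593 to 139865834 in knockout library 1 and overlapping in the other knockout libraries. Percentiles in the knockout lists were 50.5, 21.99, 42.6 and 19.3. The exact permutation p was 0.0286, the smallest that 4 against 3 libraries allow, unadjusted. Rbm41 was flagged for this very pattern among 5 matches of the family names on other chromosomes, so the p followed from the selection. On chromosomes 1 to 19, 0.294% of all genes with a locus peak had an unadjusted p under 0.05 in that test. The sex of the embryos is not given in the sources used here, and its part was not tested.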

How the results depend on the processing

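The direction of both differences over the splicing genes rested on knockout library 4. Without it the difference in end calls was −1.425 percentage points and in locus peaks −0.1595 per gene, and over the libraries left out in turn they ran from −1.425 to 7.12 points and from −0.1595 to 0.2415 peaks. The replicate block, which pairs replicates 1 to 3 and so leaves out knockout library 4 by construction, gave the same −1.425 and −0.1595. Samples share only a number: of the 3 same-numbered pairs, the deviations of locus peak numbers correlated at −0.1425, −0.2071 and 0.1226, and the block moved no count of calls. The difference in locus peaks was 0.0114 with −log10 q of at least 5 and 0.214 with flanks of 100 kb, against 0.115. The ratio of splicing genes to all genes was 0.203 with −log10 q of at least 5, where few peaks remain, and ran from 1.12 to 1.3 with each library left out. The counts of separated and of adjusted calls were 0 under all alternatives run. Leaving out a library raises the smallest p of the single-gene tests to at least 0.05, and in the paired test of the replicate block it is 0.25. A single gene could therefore not pass the adjustment under any alternative.

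Of 43 single-gene differences none passed under any alternative, where none could pass alone, and 15 changed sign in at least 1. For end calls (percentage points) these were Elavl1 at 16.7 with windows of 2.5 kb, Rbm15 at 25 with at least 50% of the peak inside, Sf3b5 at 25 and Rbm27 at 25 with −log10 q of at least 5, Sf3b5 at 8.33 and Rbm27 at 25 with equal lists, and Hnrnpul2 at −33.3 to 25 with each library left out. Hnrnpc, called in 4 of 4 and 3 of 3 libraries (difference 0), stood at −50 with equal lists and 25 with −log10 q of at least 5, so its call in all 7 libraries was lost under both, and Prpf4 moved to −75, against −25, with equal lists. For locus peaks, equal lists gave −0.0833 at Celf3, 0.25 at Celf4, 0.0833 at Nova2, 0.167 at Prpf31 and 0.333 at Rbfox1. A −log10 q of at least 5 gave 0.25 at Prpf31 and Prpf4, the replicate block −0.333 at Celf3 and −0.667 at Rbm20, flanks of 10 kb −0.167 at Rbm27 and flanks of 100 kb 0.333 at Rbfox3. With each library left out the ranges were −0.333 to 0.667 at Celf3, −0.75 to 0.333 at Nova2, −1 to 0.333 at Prpf31, −0.75 to 0.25 at Prpf4, −0.25 to 0.75 at Ptbp3, −2 to 0.667 at Rbfox1, −0.667 to 0.5 at Rbfox3, −0.667 to 1 at Rbm20 and −0.333 to 0.333 at Rbm27. The causes were not tested.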

Other observations

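Other matches of the family names lie on the sex chromosomes and are outside the 117 genes. Rbm10, an X-linked regulator of exon skipping, had an end peak in 3 of 4 knockout and 2 of 3 wild-type libraries, and Hnrnph2 in 1 of 4 and 1 of 3. Rbm3, a cold-inducible RNA-binding protein gene, had no end peak in any library, nor had Rbm31y on chromosome Y.

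Starts inside other members were open in fewer libraries. An annotated start within Rbm26 was called in 2 of 4 knockout and 1 of 3 wild-type libraries, and starts within the neuronal Elavl4 in 2 of 4 and 0 of 3. Rbm26 and Elavl4 were named here after their values were seen.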
